A study of Mus musculus with 2 samples.

Results

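Interferon-stimulated genes are the genes that a cell switches on when interferon reaches it, and 34 of them, chosen by symbol, were followed in mouse embryonic stem cells with and without Mof. All probe sets that the platform annotation ties to exactly 1 gene with one of these symbols were taken, which gave 52 of 45101 probe sets and 32 of the 34 genes. Isg15 and Ifi44 had no probe set that names them alone and were not analysed here. Where several probe sets name a gene, the one with the largest mean of its 2 values stands for it, here and for all 18193 genes of the array. No member was left out for a low value. Of the 32 genes, 29 had a mean at or above 6.02, the median of all values of both arrays, and Mx1, Mx2 and Cmpk2 lay under it.

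The study set 1 culture labelled MOF +/+ against 1 labelled MOF-/-, with 1 array for each. Mof, gene symbol Kat8, is an acetyltransferase of histone H4. Both embryonic stem cell lines were C57BL/6, came from embryos of day 3.5 post coitum, were at passage 15 to 18, and had been kept on embryonic fibroblast feeders with LIF, followed by 2 passages on plates without feeders, a step the labels give as meant to clear the fibroblasts. The labels name neither the allele nor the number of clones behind each line. Values are RMA values on a log2 scale, from 2.77 to 14.65 for the culture labelled wild type and from 2.85 to 14.67 for the other. A difference is always the value labelled Mof null minus the value labelled wild type, so 1 log2 unit is 2-fold. With 1 array per genotype there is no replicate error, no p-value and no test, and counts rest on a fixed size of 2-fold. Where several probe sets read a gene, their differences had a pooled SD of 0.32 log2 units, over 5079 genes with several probe sets at or above the median level. That spread holds no variation between cultures. Kat8 itself read 8.06 (labelled wild type) and 8.37 (labelled Mof null), so the targeted gene was not lower where the labels say it is lost. The sources used here do not place its probes inside or outside the altered part of the gene, and probes outside that part check nothing. Directions rest on the labels.

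Interferons of type I bind the receptor chains Ifnar1 and Ifnar2, whose kinases Jak1 and Tyk2 activate STAT proteins, Stat2 among them. A complex that holds Stat2 and Irf9 binds the interferon-stimulated response element, ISRE, in the promoters of target genes, while interferon gamma acts mainly through the GAS element. The induced proteins sense foreign nucleic acid, block its translation, trap viruses at membranes or feed back on the pathway. Pluripotent cells are known for a weak response to interferon, whereas fibroblasts respond strongly.

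Most interferon-stimulated genes were lower on the array labelled Mof null. Of the 32 genes, 30 had a negative difference, 20 were lower by at least 2-fold and 0 were higher by that much. Over all 18193 genes, 7003 had a negative difference, 8.25% were lower by at least 2-fold and 3.5% higher. The 62.5% of members that were lower by that size is above the background share. The members were chosen with earlier results of these data known, so this excess describes the 2 arrays and tests nothing. At 4-fold, 11 members were lower and none was higher, against 2.15% and 0.192% of all genes. At 1.5-fold, 24 were lower and 1 was higher, against 13.7% and 12.7% of all genes. The median difference of the members was -1.45 (SD over genes 1.13, n = 32 genes), and that of all genes was 0.11. Counted by probe set, 30 of 52 were at least 2-fold lower, 48 had a negative difference, and 7.15% of all 34945 named probe sets were at least 2-fold lower. The share of genes at least 2-fold lower was 11.5% among those at or above the median level, where 19 of 29 members were lower.

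Ifit1, Oasl2 and Usp18 were among the 10 genes of the whole array with the most negative differences, at places 3, 8 and 10. A further 3, Rtp4, Ifit3 and Gbp3, were within the lowest 100, and 17 members were within the lowest 1000 of 18193 genes. Just past 2-fold lay Irf9 (-1.13) and Ifitm3 (-1.09), and just short of it Oasl1 (-0.91), Dhx58 (-0.82) and, in the other direction, Ifitm1 (0.94).

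**Figure D1:**
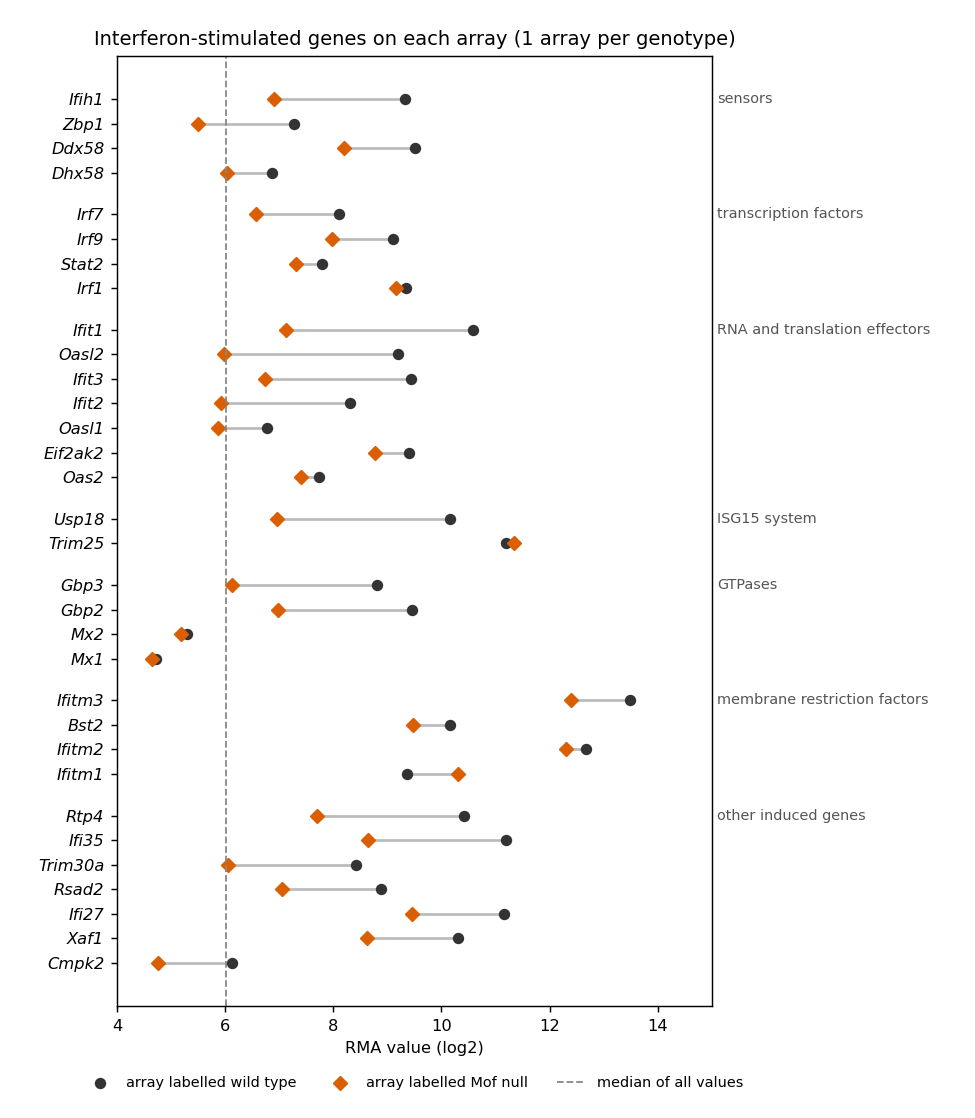
Each line joins the RMA value (log2, x axis) of a gene on the array labelled wild type (dark circle) to its value on the array labelled Mof null (orange diamond), with genes grouped by role and the dashed line at the median of all values, 6.02. In 30 of 32 genes the diamond lies to the left of the circle; Ifitm1 and Trim25 are the others.

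Genes that act on RNA or on translation held the most negative differences. Ifit1, whose protein binds foreign RNA at its end and blocks its translation, read 10.59 (labelled wild type) and 7.13 (labelled Mof null), lower by 11.1-fold. Ifit3, of the same family, read 9.43 and 6.73, lower by 6.49-fold. Ifit2, which also binds RNA, read 8.31 and 5.92, lower by 5.23-fold. All 3 Ifit genes thus differed by more than 5 times on the single probe set each had. They neighbour each other on chromosome 19, where Ifit2 and Ifit3 adjoin and 3 further coding genes of the family lie between Ifit3 and Ifit1.

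The oligoadenylate synthetase genes were not alike. Oasl2, an enzyme-like member of the family, read 9.2 (labelled wild type) and 5.97 (labelled Mof null), lower by 9.35-fold. Oasl1, its direct neighbour on chromosome 5, read 6.78 and 5.87, with a difference of -0.91. Oas2, whose product activates RNase L, read 7.73 and 7.41, a difference of -0.31 on its 1 probe set. Eif2ak2, the kinase PKR that stops translation on sensing double-stranded RNA, had probe sets at -0.62, -0.83 and -1.4. So 4 of these 7 genes were past 2-fold, all of them by more than 5 times, and the median of the group was -2.39.

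Of the 4 cytosolic sensors, 3 were at least 2-fold lower. Ifih1, the sensor MDA5 of long double-stranded RNA, read 9.32 (labelled wild type) and 6.91 (labelled Mof null), lower by 5.33-fold. Zbp1, which binds nucleic acid in the Z form and can trigger cell death, read 7.27 and 5.5, lower by 3.4-fold, and its second probe set was lower by 2.38-fold. Ddx58, the sensor RIG-I, read 9.51 and 8.19, lower by 2.49-fold. A second Ddx58 probe set differed by -1.63, and one more, with both values under the median, by -0.26. Dhx58, the related helicase LGP2, read 6.86 and 6.04, a difference of -0.82, while its other probe sets lay near the floor at -0.2 and 0.13.

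Among the transcription factors of the pathway, Irf7 and Irf9 were past 2-fold and Stat2 and Irf1 were not. Irf7, which drives the interferon alpha genes, read 8.11 (labelled wild type) and 6.58 (labelled Mof null), lower by 2.89-fold. Irf9, the DNA-binding part of the ISRE factor, read 9.1 and 7.97, lower by 2.19-fold. Stat2, its partner, differed by -0.48 and -0.62 on its probe sets. Irf1, a factor that interferon gamma induces, read 9.34 and 9.16 and differed by -0.19. The median of these 4 genes was -0.81.

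Usp18, the protease that removes ISG15 from proteins and also damps the type I receptor, read 10.15 (labelled wild type) and 6.96 (labelled Mof null), lower by 9.14-fold. Trim25, a ubiquitin ligase that acts on RIG-I, read 11.2 and 11.34, a difference of 0.13 that turned to -0.04 with the mean of its probe sets, -0.03 after lowess correction and -0.47 relative to the pluripotency genes. These 2 genes were read for the ISG15 system, and they lay at opposite ends of the members.

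The GTPases fell into genes with a readable level and genes near the floor. Gbp2 and Gbp3, guanylate-binding proteins that attack the vacuoles of intracellular microbes, have 1 coding gene between them on chromosome 3. Gbp2 read 9.45 (labelled wild type) and 6.97 (labelled Mof null), lower by 5.58-fold, and by 6.03-fold on its second probe set. Gbp3 read 8.81 and 6.12, lower by 6.47-fold. Mx1 read 4.73 and 4.65 and Mx2 5.29 and 5.18, so both dynamin-like genes were under the median on both arrays. Laboratory strains such as C57BL/6 carry a defective Mx1.

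Membrane restriction factors had the smallest differences of the role groups, with a median of -0.52. Ifitm1, Ifitm2 and Ifitm3, which hinder the entry of enveloped viruses, adjoin on chromosome 7 and yet differed in sign. Ifitm3 read 13.48 (labelled wild type) and 12.39 (labelled Mof null), lower by 2.13-fold. Ifitm2 read 12.67 and 12.3, a difference of -0.37. Ifitm1 read 9.37 and 10.31, a difference of 0.94. Under the 8 alternatives of scaling, filter and probe set it stayed positive, between 0.33 and 0.94. Only the changes of scaling could move it, as its single probe set passed the filters. Each of the 3 had 1 probe set, and values of such close paralogs are uncertain, since probes may read more than 1 of them. Bst2, the tetherin that holds budding viruses to the cell, read 10.15 and 9.48, a difference of -0.67.

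All 7 of the other induced genes that were read were at least 2-fold lower. Rtp4, a chaperone of receptors with antiviral activity, read 10.42 (labelled wild type) and 7.7 (labelled Mof null), lower by 6.6-fold. Ifi35, which binds the interferon-induced protein Nmi, read 11.19 and 8.65, lower by 5.8-fold. Trim30a, a tripartite motif protein, read 8.42 and 6.06, lower by 5.11-fold. Rsad2, or viperin, which makes an antiviral nucleotide, read 8.88 and 7.05, lower by 3.53-fold. Cmpk2, a mitochondrial nucleotide kinase and the neighbour of Rsad2 on chromosome 12, read 6.13 and 4.76, lower by 2.58-fold, but its other probe set, near the floor, differed by -0.12 and the mean of both by -0.74. Ifi27, a small mitochondrial protein, read 11.16 and 9.45, lower by 3.27-fold. Xaf1, which counters the inhibitor of apoptosis XIAP, read 10.31 and 8.62, lower by 3.22-fold.

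**Figure D2:**
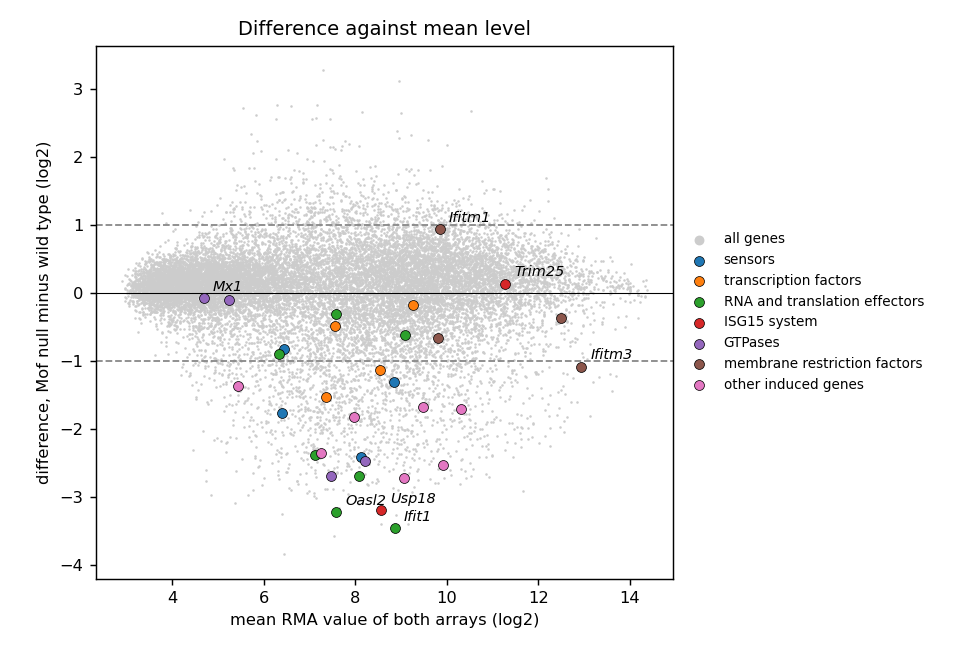
The difference of each gene (log2, Mof null minus wild type, y axis) is plotted against its mean value on both arrays (log2, x axis), with all 18193 genes in grey, members coloured by role and dashed lines at 2-fold. Members with large negative differences lie at middle levels, while Mx1 sits in the narrow band of genes near the floor and Ifitm1 just under the upper line at 0.94.

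Different probe sets of a member mostly pointed the same way. Several probe sets read 14 members, of which 6 were past 2-fold on each, 5 on some and 3 on none. Probe sets had opposite signs in 2 members, Dhx58 and Trim25. Rsad2 ranged from -2.44 to -0.73, Rtp4 from -2.72 to -1.3 and Xaf1 from -1.69 to -0.7. The remaining 18 members rest on 1 probe set, among them Ifit1, Oasl2 and Usp18.

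**Figure D3:**
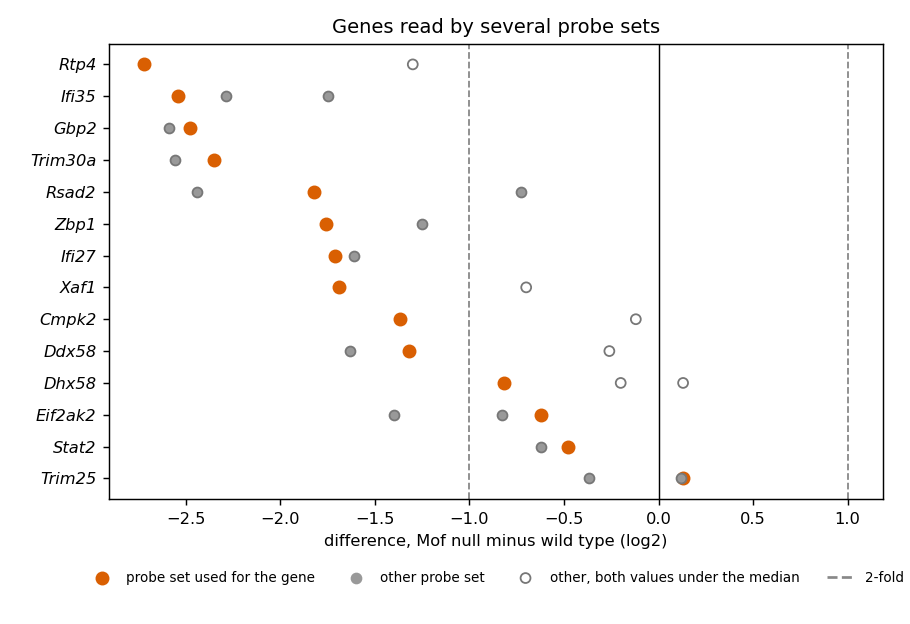
For the 14 members with several probe sets, each point is the difference (log2, x axis) of 1 probe set, filled orange for the one that gave the gene's value, grey for others and open where both values lie under the median of all values. Dashed lines mark 2-fold, and probe sets of Dhx58 and Trim25 lie on both sides of 0.

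The promoters of the members were searched for the elements that interferon signalling uses, over windows of 300 bases from RefSeq (build GRCm38.p6) that hold 250 bases before the annotated start and 50 from it. The ISRE-like word was GAAANNGAAA and the GAS-like word TTCNNNGAA, both read on both strands. Windows were on hand for 26 of the 34 genes. Dhx58, Ifi27, Mx1, Mx2, Oas2, Rtp4, Usp18 and Zbp1 had no entry. Of the 26 genes, 14 (53.8%) had an ISRE-like word in a window, against 3.99% of the 27025 genes of the table and 3.44% of its windows. The GAS-like word was present in 6 of 26 (23.1%), against 9.55% of all genes and 8.3% of windows. Words of both kinds were present in 3 member windows and overlapped in 2 of them. A match is a run of letters and not a measured binding site.

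Shown to let the words be seen in place are the 160 bases before the start, 5′ to 3′ on the strand of the gene, with ISRE-like words in capitals, written as TTTC pairs where the word lies on the opposite strand. The first 6 are members that were at least 2-fold lower and carry a word, Ifitm2 carries a word and was under 2-fold, and Oasl2 was lower by 9.35-fold without one.
Ifit1, chr19:34640729-34640888, plus strand: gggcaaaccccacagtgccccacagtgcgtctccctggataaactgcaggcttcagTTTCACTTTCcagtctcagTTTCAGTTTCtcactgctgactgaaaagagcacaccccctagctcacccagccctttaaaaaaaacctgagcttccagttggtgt
Ifit3, chr19:34583369-34583528, plus strand: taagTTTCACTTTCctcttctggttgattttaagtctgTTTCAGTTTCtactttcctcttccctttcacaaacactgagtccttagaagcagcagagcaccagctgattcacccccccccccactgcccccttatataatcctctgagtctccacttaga
Gbp3, chr3:142559884-142560043, plus strand: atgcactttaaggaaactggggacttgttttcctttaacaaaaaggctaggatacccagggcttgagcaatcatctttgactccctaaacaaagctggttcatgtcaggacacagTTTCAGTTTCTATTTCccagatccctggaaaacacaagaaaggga
Gbp2, chr3:142620503-142620662, plus strand: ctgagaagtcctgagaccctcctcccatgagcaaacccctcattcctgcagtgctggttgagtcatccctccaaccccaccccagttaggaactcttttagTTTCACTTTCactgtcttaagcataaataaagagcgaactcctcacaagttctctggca
Rsad2, chr12:26456453-26456612, minus strand: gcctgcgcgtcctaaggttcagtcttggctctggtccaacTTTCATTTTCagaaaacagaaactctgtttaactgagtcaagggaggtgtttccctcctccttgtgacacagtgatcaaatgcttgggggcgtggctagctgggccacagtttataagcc
Trim30a, chr7:104465194-104465353, minus strand: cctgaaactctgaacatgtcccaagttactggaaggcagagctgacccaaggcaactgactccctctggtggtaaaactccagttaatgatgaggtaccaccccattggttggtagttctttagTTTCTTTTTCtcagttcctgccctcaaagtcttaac
Ifitm2, chr7:140955962-140956121, minus strand: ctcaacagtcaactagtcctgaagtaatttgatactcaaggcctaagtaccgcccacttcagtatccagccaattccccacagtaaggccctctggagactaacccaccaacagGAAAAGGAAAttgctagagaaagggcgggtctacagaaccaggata
Oasl2, chr5:114896774-114896933, plus strand: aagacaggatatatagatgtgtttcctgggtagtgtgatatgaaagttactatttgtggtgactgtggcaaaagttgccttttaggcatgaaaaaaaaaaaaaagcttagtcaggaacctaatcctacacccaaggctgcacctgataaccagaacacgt

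Ifit1 and Ifit3 each showed 2 separate words before the start, which in Ifit1 began at positions -104 and -85, counting the start base as 0. Gbp3 held 2 that overlap, and Gbp2, Rsad2, Trim30a and Ifitm2 held 1 each in the bases shown. In Ddx58, Eif2ak2, Ifih1 and Ifitm3 the word lay after the start only. Of the 13 read members with an ISRE-like word, 9 were at least 2-fold lower (median difference -1.82), and of the 11 without one, 7 were (median -1.37). Among genes that are no members, 12.1% of 511 with the word and 7.57% of 13917 without it were at least 2-fold lower. Their median differences were 0.04 with the word and 0.11 without it. Genes that are no members still include the further interferon-stimulated genes described below, of which 22, read or not, carry the word. With the GAS-like word, 3 of 6 read members were at least 2-fold lower (median -0.88), against 13 of 18 without it (median -1.61). Among genes that are no members, the shares were 7.46% with the GAS-like word and 7.76% without it.

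**Figure D4:**
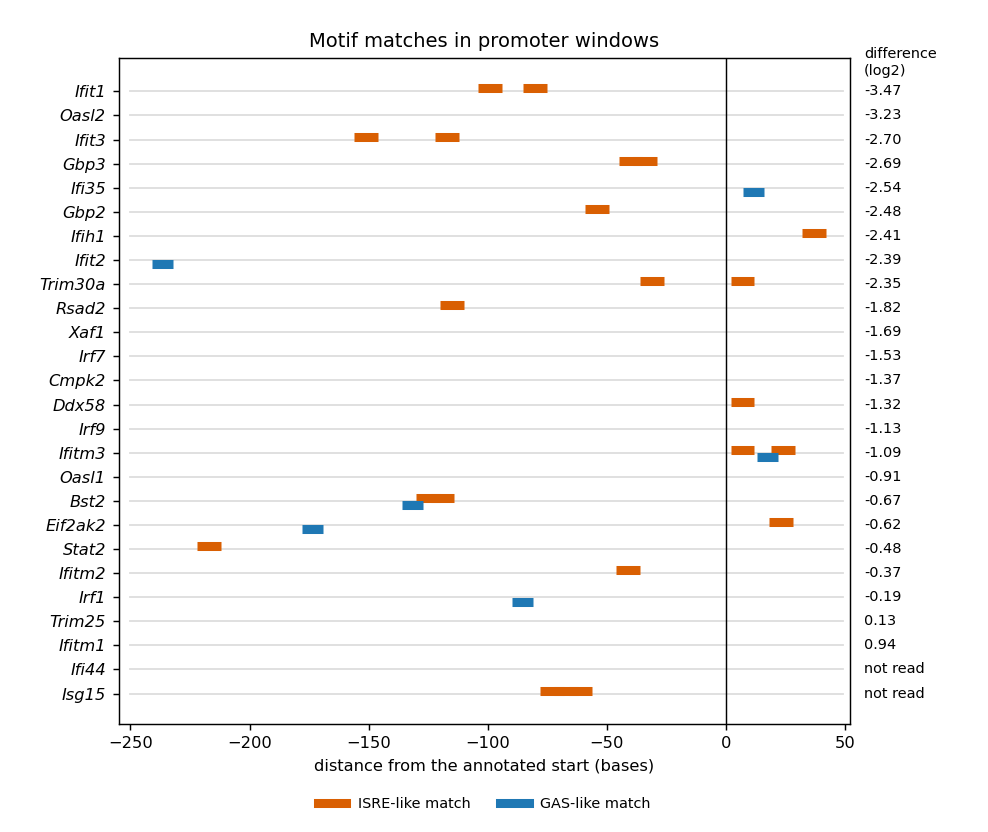
Each row is a member with promoter windows, ordered by its difference (log2, printed at the right, with Ifi44 and Isg15 last as not read), and coloured bars mark ISRE-like (orange) and GAS-like (blue) words by distance in bases from the annotated start (x axis); windows of a gene with several starts are drawn over each other. An orange bar stands in 14 of 26 rows, 1 of them Isg15, which was not read, and the others run from Ifit1 at -3.47 to Ifitm2 at -0.37. Rows with no bar are Oasl2 (-3.23), Xaf1 (-1.69), Irf7 (-1.53), Cmpk2 (-1.37), Irf9 (-1.13), Oasl1 (-0.91), Trim25 (0.13), Ifitm1 (0.94) and Ifi44.

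The rest of the pathway was read through 6 lists of genes that are no members. Interferon genes themselves were near the floor. Of 10 interferon genes read, none was past 2-fold, and Ifnz, at 6.78 and 6.51, was the one above the median of all values. Ifnb1, the first interferon that most cells make, read 5.01 (labelled wild type) and 4.92 (labelled Mof null). At such values a change in these transcripts may not be readable on these arrays.

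Of 6 receptor chains, 3 were past 2-fold, all in the lower direction. Il10rb, shared by the receptors of interferon lambda and interleukin 10, was lower by 3.75-fold, though its second probe set, under the median, differed by -0.19. Both chains of the interferon gamma receptor were past 2-fold, Ifngr2 at 2.64-fold, with another probe set at -0.08, and Ifngr1 at 2.09-fold. The type I receptor chains were under 2-fold on the probe sets used, with Ifnar1 at 8.3 and 8.23 and Ifnar2 at 9.87 and 9.28, although another Ifnar2 probe set differed by -1.53.

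None of 4 kinases and STATs at the receptor was past 2-fold on the probe set used. Jak1 read 10.61 (labelled wild type) and 9.85 (labelled Mof null), and its probe sets ranged from -1.43 to -0.77. Tyk2 read 8.26 and 8.61, a difference of 0.36. Of 7 inhibitors of the pathway none was past 2-fold, and Socs3, a feedback inhibitor that LIF also induces, was nearest at 0.99, with another of its probe sets at 1.08. Of 12 genes that switch on interferon production, 5 were at least 2-fold lower: the kinase Ikbke by 3.68-fold, the receptor Tlr3 by 2.72-fold, the adaptor Myd88 by 2.37-fold, Tank by 2.1-fold, with another probe set at a difference of -0.2, and Rela by 2.06-fold. Irf3, the factor that starts interferon transcription, read 9.83 and 9.73.

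Further interferon-stimulated genes outside the 34 showed the same picture at a smaller size. That list, too, was chosen with earlier results of these data known. Of 52 read, 24 were past 2-fold, all in the lower direction, with a median of -0.91. The immunity-related GTPase genes Irgm1 and Irgm2 were lower by 6.97-fold and 5.54-fold, the DNA-binding Ifi204 by 6.17-fold, Samd9l by 6.01-fold, Ifi27l2a by 5.05-fold and Gbp7 by 4.56-fold. Apobec3, a cytidine deaminase that restricts retroviruses, lay at the other end with a difference of 0.84. ISRE-like words were present in 44.0% of the 50 of these genes with a promoter window.

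**Figure D5:**
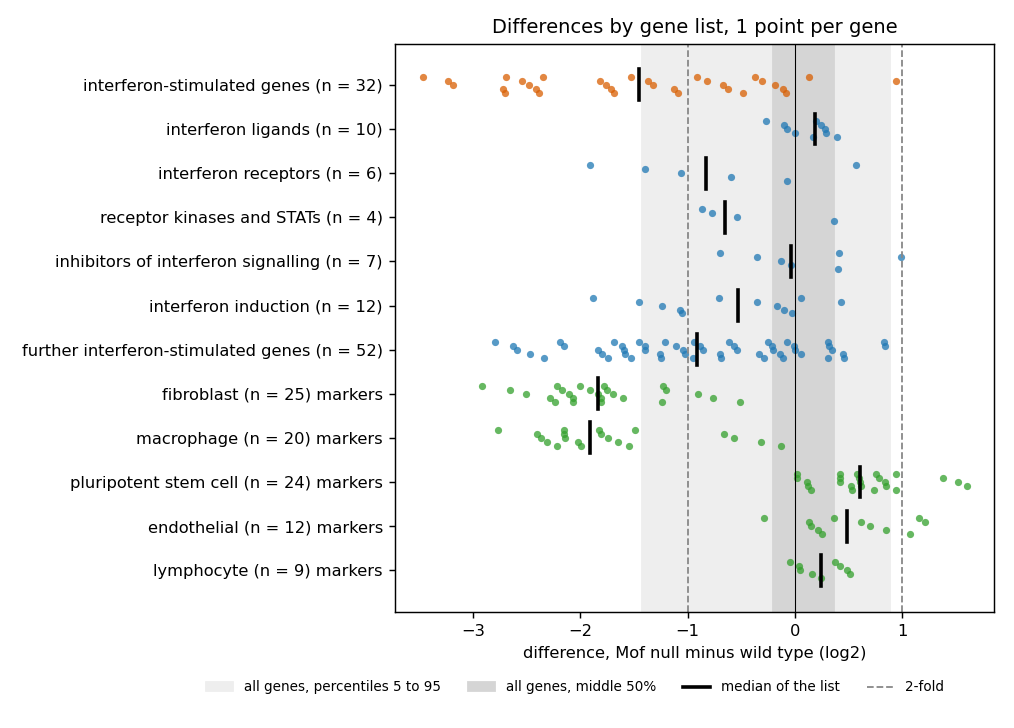
Each point is the difference (log2, Mof null minus wild type, x axis) of 1 gene, by list, with the members in orange, other pathway lists in blue, cell type markers in green, black bars at medians and grey bands for all genes. Member (-1.45), fibroblast (-1.84) and macrophage (-1.91) medians lie left of the 2-fold line, and the pluripotent stem cell median (0.6) lies right of 0.

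Markers of fibroblasts and macrophages were lower along with the interferon-stimulated genes. Of all 18193 genes, 7003 had a negative difference and 8.25% were at least 2-fold lower. Negative differences were seen for 25 of 25 fibroblast markers (median -1.84), and 22 of them were past 2-fold. The values of these fibroblast markers ran from 8.27 to 14.31 (labelled wild type) and from 6.5 to 13.63 (labelled Mof null), so each was above the median of all values in both cultures. The collagen genes Col3a1 and Col1a2 read 14.31 and 14.17 (labelled wild type) against 13.08 and 12.97 (labelled Mof null), and Sparc and Acta2 were the others among the 4 highest. Other probe sets of Col3a1 and Col1a2 differed by as much as -2.36 and -2.65. Probe sets of Acta2 ranged from -2.69 to -0.18 and those of Sparc from -0.72 to 0.16. Negative differences were also seen for 20 of 20 macrophage markers (median -1.91), 16 of them past 2-fold. Their values ran from 3.57 to 13.32 (labelled wild type) and from 3.25 to 11.83 (labelled Mof null), with 18 and 16 at or above the median of all values. The highest were the lysozyme genes Lyz1, at 13.32 and 11.83 with another probe set at a difference of -0.1, and Lyz2, at 12.84 and 10.69, followed by Ctss at 11.79 and 9.65 and Laptm5 at 10.51 and 10.38. The leukocyte gene Ptprc read 8.1 and 5.33, while a second probe set of it, near the floor, differed by 0.17. Cd163 was under the median on both arrays. All 24 markers of pluripotent stem cells were read above the median of all values on both arrays and had a median difference of 0.6, with 3 past 2-fold higher. Dppa5a (13.81 and 14.23), Tdgf1 (12.41 and 13.35) and Pou5f1 (12.22 and 12.74) were the highest of them. Both arrays thus held pluripotency transcripts as labelled and fibroblast transcripts as well. Endothelial markers had a median difference of 0.49, with 5 of 12 at or above the median of all values and 3 past 2-fold higher. Of these 3, Pecam1 read 7.42 and 8.59, Esam 7.26 and 8.32, and Vwf, under that median, 4.23 and 5.44. Egfl7, the highest endothelial marker, read 8.34 and 9.19, and Kdr, the 1 with a negative difference, 7.02 and 6.74. Lymphocyte markers had a median difference of 0.24, with 2 of 9 reaching that median, Cd3e (6.87 and 7.38) and Cd4 (6.3 and 6.46). In a bulk sample, fewer cells of a type and less RNA per cell cannot be told apart, and the part of fibroblast or macrophage RNA in the lower interferon-stimulated genes was not tested.

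Set beside the fibroblast markers, 21 of the 32 members had differences inside the marker range of -2.92 (Col1a1) to -0.51 (Sparc). Ifit1, Oasl2 and Usp18 lay below that range, and also below the lowest macrophage marker, Ptprc at -2.77. These ranges rest on 1 probe set per gene. Another probe set of Col1a1 differed by -1.77, one of the fibroblast marker Prrx1 by -3.16 and one of the macrophage marker C1qb by -2.8. The 8 members above the fibroblast range were Stat2, Ifitm2, Oas2, Irf1, Mx2, Mx1, Trim25 and Ifitm1. Relative to the pluripotent stem cell markers, a scaling that subtracts 0.6 from every gene, 25 members were at least 2-fold lower and the median was -2.05, and 18.0% of all genes were then at least 2-fold lower.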

How the data were processed

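RNA of 2 cultures, 1 per genotype, was hybridised to 1 array each. The deposited table holds 1 value per probe set and array, read as log2 from its range. RMA, the affy package and R 2.10.0 are named by the submitters' processing notes. RMA equalises the distributions of arrays, so a shift of most transcripts one way cannot be seen. Which arrays were normalized together is not stated.

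Probe sets with a single symbol and Entrez ID numbered 34945 and were used. RefSeq's gene table (GRCm38.p6) held all 34 symbols and gave neighbours. Members and lists were chosen with earlier results of these data known. By rule the text names all members, Kat8, key receptor and signalling genes, up to 6 genes past 2-fold per pathway list and at most 4 of the markers highest on the array labelled wild type per marker list. Ifnz, Socs3, Apobec3, Col1a1, Prrx1, C1qb, Ptprc, Cd163 and Vwf are outside that rule and were picked for their values. Settings varied were the choice of probe set, the level filter, the scaling and the fold. Counting was tested on simulated data. Software was Python 3.11.15 with pandas 2.3.3, numpy 2.4.6, statsmodels 0.14.6 (lowess) and matplotlib 3.10.9.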

Additional observations from a re-analysis of the deposited data

How the results depend on the processing

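No paired analysis was possible because there was 1 array per genotype, and leaving out an array was not possible either. Across the 8 alternatives of probe set, level filter and scaling, 19 to 25 members were past 2-fold in the lower direction and none in the other. Of all genes, 6.39% to 18.0% were at least 2-fold lower under these alternatives. The 25 members and the 18.0% both belong to the scaling relative to the pluripotent stem cell list. The median difference of the members lay between -1.69 and -1.16, except with the pluripotent stem cell list set to a median of 0, which moves every gene alike and gave -2.05. Member probe sets at least 2-fold lower numbered 26 to 39 of those kept. At 4-fold 11 members were lower, and at 1.5-fold 1 was higher, Ifitm1. Of the 20 members past 2-fold, 19 were so under each alternative that kept them, the exception being Cmpk2 at -0.74 with the mean of its probe sets. Trim25 was the 1 member whose sign changed, and it was not past 2-fold. Values near the floor, such as those of Mx1, Mx2 and the interferon genes, are compressed, so a difference there would be understated.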
